A study of Mus musculus with 12 samples.

Results

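The genes followed here were 10 members of the p53 and mitochondrial cell death pathways, out of 35675 annotated genes: Trp53, Mdm2, Cdkn1a, Ccng1, Phlda3, Bbc3, Hrk, Bcl2l11, Pmaip1 and Bax. These genes were chosen by name with earlier results of these data known, so counts of calls among them are no independent test. They were measured by mRNA sequencing of oligodendrocyte-enriched cells, 1 library per mouse, from spinal cords of mice at postnatal day 10. Control mice were CnpCre:Rosa26-StopFlox-TdTomato, RalA cKO mice were CnpCre:RalAflox/flox:Rosa26-StopFlox-TdTomato, and RalAB cKO mice carried RalBflox/flox in addition to all of these alleles, with 4 mice per group. All 3 groups, control included, therefore carried CnpCre, a recombinase driven from the locus of the myelin-associated enzyme Cnp, and a tdTomato reporter that recombination switches on. Cells were sorted from dissociated tissue by tdTomato fluorescence and large forward scatter, so both deletion and sorting followed Cnp-driven recombination and not every spinal cord cell. Each spinal cord came from a separate mouse, and their sex is not stated in the labels. RalA and RalB are closely related GTPases that act in vesicle traffic to the plasma membrane, and the comparisons ask how loss of RalA alone, and of RalA together with RalB, changes RNA in these cells.

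Trp53 encodes p53, a transcription factor that is held at a low level by the ubiquitin ligase Mdm2 and is stabilised, mainly as protein, by DNA damage and other stress. Stabilised p53 switches on genes that halt the cell cycle, such as Cdkn1a, genes that damp growth signals, such as Phlda3, and genes that start mitochondrial cell death. Death genes of the BH3-only class, to which Bbc3 (PUMA), Pmaip1 (NOXA), Hrk and Bcl2l11 (BIM) belong, neutralise the pro-survival BCL2 proteins and so free effectors such as Bax to permeabilise mitochondria. BH3-only genes also answer to other inputs, among them the kinase JNK with its partner Jun, the FOXO factors and Ddit3 (CHOP). In the oligodendrocyte lineage, mitochondrial cell death removes surplus newly formed cells during development.

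The DNA just upstream of the members is shown first, because p53 acts on its targets through a recognisable DNA element. RefSeq windows of 300 bases (250 before to 50 after an annotated start, GRCm38.p6) were present for 9 of the 10 members, in 13 windows. The p53 half-site consensus, a 10-base motif that reads the same on both strands, matched at 1 or more places in windows of 5 members, and 8.36% of all 32851 windows hold such a match. Joined sites of 20 bases, meaning 2 half-sites side by side with at most 1 mismatch in all, were found in windows of 2 members, Cdkn1a and Ccng1, against 0.0883% of all windows. For every motif here a member is counted if any of its windows matches, whereas the shares are per window, so the units differ. In the sequences below, read 5′ to 3′ along the gene's strand, capitals mark matches to the half-site and the joined sites.
Cdkn1a, upstream start, chr17:29090729-29091028, plus strand: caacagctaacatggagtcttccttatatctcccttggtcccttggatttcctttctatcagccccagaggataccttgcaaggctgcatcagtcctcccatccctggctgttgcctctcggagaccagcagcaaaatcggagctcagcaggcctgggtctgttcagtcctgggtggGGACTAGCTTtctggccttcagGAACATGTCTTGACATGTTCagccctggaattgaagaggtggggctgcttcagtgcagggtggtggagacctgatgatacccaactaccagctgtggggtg
Cdkn1a, downstream start, chr17:29093519-29093818, plus strand: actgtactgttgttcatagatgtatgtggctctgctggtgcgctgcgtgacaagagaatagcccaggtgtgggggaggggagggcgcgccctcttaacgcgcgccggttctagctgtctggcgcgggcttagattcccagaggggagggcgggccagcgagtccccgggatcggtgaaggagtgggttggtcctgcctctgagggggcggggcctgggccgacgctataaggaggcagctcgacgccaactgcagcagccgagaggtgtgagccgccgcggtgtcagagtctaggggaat
Ccng1, chr11:40755452-40755481, minus strand: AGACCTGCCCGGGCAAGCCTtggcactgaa
Mdm2, chr10:117710925-117710954, minus strand: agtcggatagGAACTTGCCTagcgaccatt
Bax, chr7:45467080-45467109, minus strand: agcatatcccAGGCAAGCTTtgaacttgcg
Trp53, chr11:69580274-69580303, plus strand: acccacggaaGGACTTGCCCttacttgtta
Bbc3, start of its most abundant transcript, chr7:16309333-16309632, plus strand: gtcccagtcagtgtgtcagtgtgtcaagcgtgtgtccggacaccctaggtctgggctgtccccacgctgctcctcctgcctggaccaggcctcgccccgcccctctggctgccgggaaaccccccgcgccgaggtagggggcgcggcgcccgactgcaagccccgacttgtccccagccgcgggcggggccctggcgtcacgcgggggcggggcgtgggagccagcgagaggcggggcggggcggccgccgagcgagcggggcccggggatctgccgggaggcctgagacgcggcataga

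The upstream Cdkn1a window holds a joined site that begins 51 bases before the start, and a further half-site 73 bases before it. That window was the only one of the 13 with 2 exact half-sites at most 13 bases apart, a pattern found in 0.0731% of all windows. Transcripts that begin in this window carried only 0.882% of the estimated counts of Cdkn1a, whereas those beginning in the downstream window, which has no match, carried 98.7%. The joined site also lies upstream of that downstream start, outside its window, and which start it acts on was not tested. Ccng1 has a joined site that begins 195 bases before the start, and all of its counts came from the transcript that begins there. The single half-sites lie 186 bases before the start in Mdm2, 201 in Bax and 75 in Trp53, and none was found in the windows of Phlda3, Hrk, Bcl2l11 or Bbc3. The motif CACGTG (bound by basic helix-loop-helix factors, and its own reverse complement) was present in windows of 3 members, Bax, Trp53 and Bbc3, and in 7.15% of all windows. The motif GTAAACA (the core bound by FOXO factors, searched on both strands) was present in windows of Bcl2l11, Bbc3 and Mdm2, and in 3.65% of all windows. The window at the start of the most abundant Bbc3 transcript held neither motif. In Bbc3, CACGTG lay in a window whose transcript carried 4.15% of the counts, and GTAAACA in a window where no annotated transcript began. A match describes letters only, and no binding was measured here. DNA outside these windows was not searched, so a gene without a match here may hold a p53 element elsewhere.

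Levels of different genes were compared per length, as TPM (transcripts per 1e+06 transcripts) in the 4 control libraries. Phlda3, which encodes a pleckstrin-homology protein that competes with Akt for membrane lipids, was the highest member at 305 ± 54.0 TPM (SD, n = 4), and over all 12 libraries it ranked 425 of all genes by mean TPM. Bax followed at 207 ± 31.1 TPM, and its control range of 171 to 244 did not reach the Phlda3 range of 254 to 368. Trp53 was at 46.4 ± 2.04 TPM and Mdm2 at 40.2 ± 7.5 TPM, with overlapping control values. Ccng1, encoding cyclin G1, was at 16.5 ± 3.21 TPM and Bbc3 at 13.2 ± 3.67 TPM, which also overlapped. Cdkn1a, the p21 inhibitor of cyclin-dependent kinases, was at 4.42 ± 2.21 TPM and Bcl2l11 at 3.76 ± 1.09 TPM, again with overlap. Hrk at 0.230 ± 0.105 TPM and Pmaip1 at 0.106 ± 0.0817 TPM were the lowest, and their ranges overlapped. In control cells the order thus placed the effector Bax above every BH3-only member.

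Libraries held 10928206 to 15440437 estimated counts. Values of single genes below are CPM (counts per 1e+06 counts) scaled between libraries by the trimmed mean of M values, tests are edgeR quasi-likelihood tests with Benjamini-Hochberg adjustment over 13456 genes, and a gene is called at an adjusted p under 0.05. Whole-gene counts of the targeted genes did not separate the groups: Rala ranged from 35.5 to 59.3 CPM in control libraries, 33.1 to 42.7 in RalA cKO and 32.2 to 42.9 in those of RalAB cKO, and Ralb from 15.1 to 23.3, 13.4 to 17.5 and 14.0 to 17.2 CPM. Rala differed from control by -0.31 on the log2 scale in RalA cKO (adjusted p = 0.236), by -0.39 in RalAB cKO (0.0832), and Ralb differed by -0.28 in the double mutant (adjusted p = 0.216). The sources used here do not say which part of each gene the floxed alleles remove, so these counts are no check of the deletion and genotypes are used as labelled. Markers of oligodendrocytes (12 genes, Mbp and Mog among them) were abundant in every library, at a summed 71884 to 108680 CPM, and in RalAB cKO against control 4 of them were called lower (Ermn, Mog, Mobp and Opalin) and 1 higher (Myrf). Markers of microglia and macrophages (16 genes) summed to 280 to 614 CPM in control, 190 to 312 in RalA cKO and 1264 to 2308 in the double mutant, and 15 of the 16 were called higher in RalAB cKO than in control. Immediate early genes, which respond within minutes to stimulation or to cell handling (10 genes), summed to 278 to 562, 262 to 357 and 521 to 776 CPM in the same order, and 5 of the 10 were called higher in RalAB cKO. Of 8 markers of oligodendrocyte precursors 6 were called lower in RalAB cKO than in control, as were 6 of 10 astrocyte markers and 3 of 11 tested neuronal markers, with 1 other neuronal marker called higher. Of all genes tested, 9.39% were called higher and 9.02% lower in that comparison. The neuronal sum was 689 to 861 CPM in control, 674 to 744 in RalA cKO and 840 to 937 in RalAB cKO, so it did not follow the lower calls. Control 1 and RalAB cKO 1 differed from the other libraries of their groups more than these differed from each other.

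**Figure D1:**
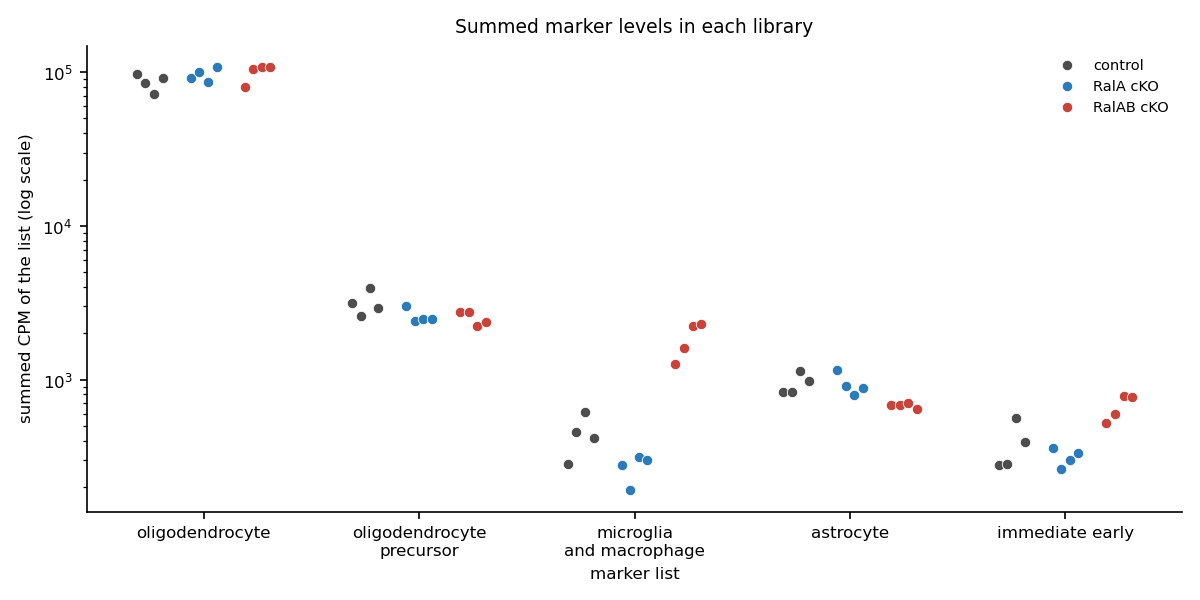
Summed CPM of 5 marker lists (log scale, y axis) in each of the 12 libraries, coloured by group, with libraries 1 to 4 from left to right. Microglia and macrophage markers lie between 1264 and 2308 CPM in RalAB cKO and at or below 614 CPM in both other groups, while the sums of oligodendrocyte markers overlap between all groups.

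In RalAB cKO, 5 members were higher than in control and none was lower: the BH3-only genes Bbc3 and Hrk, the cell cycle inhibitor Cdkn1a, Trp53 itself and the effector Bax. Bbc3 rose 1.99-fold, Hrk 4.61-fold and Cdkn1a 3.67-fold, the last 2 from lower levels, while the more abundant Trp53 and Bax rose 1.33-fold and 1.31-fold. Mdm2, Ccng1, Phlda3 and Bcl2l11 were not called, and Pmaip1 was too low to be tested. Of all genes tested, 18.4% were called in this comparison, 9.39% higher and 9.02% lower (51.0% of the calls were higher, and 41.4% with scaling by library totals). Over the 9 tested members, the median log2 fold change was 0.39, beside -0.01 over all genes. The 5 calls and this median include Hrk, which passed the count filter only through its mutant libraries. In RalA cKO only Phlda3 was called, and it was higher than in control. In that comparison 2.78% of all genes were called, 1.71% higher and 1.07% lower (61.5% of the calls were higher, and 41.3% with scaling by library totals), and the median over the members was 0.17, beside -0.02 over all genes. Because the sorted cells were sequenced in bulk, a larger share of cells expressing a gene and more of its RNA per cell cannot be told apart here.

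**Figure D2:**
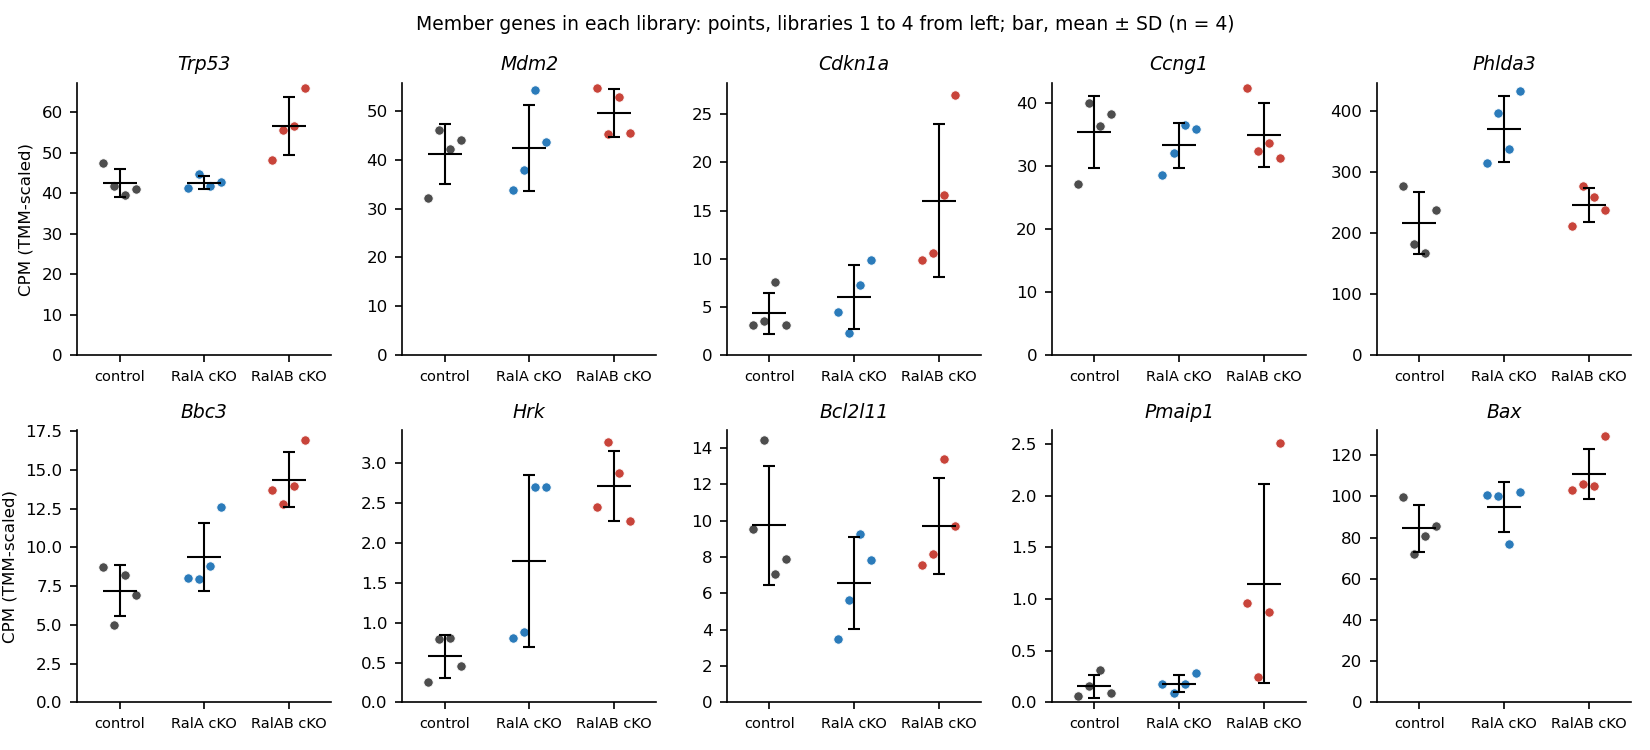
CPM (y axis, linear from 0, scale differing between panels) of the 10 members in control, RalA cKO and RalAB cKO, with 1 point per library (1 to 4 from left to right) and the mean ± SD of the 4 libraries. All RalAB cKO points of Bbc3 (12.8 to 17.0 CPM) lie above all points of the other groups, and all RalA cKO points of Phlda3 (314 to 432 CPM) lie above all points of the other groups.

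Trp53 was 47.5, 41.8, 39.6 and 41.0 CPM in the 4 control libraries, 41.3, 44.7, 41.9 and 42.8 CPM in those of RalA cKO and 48.3, 55.6, 56.7 and 65.9 CPM in those of RalAB cKO. The CPM values of control and RalA cKO were interleaved, and every RalAB cKO library lay above every library of the other groups. In TPM, RalA cKO (39.0 to 42.7) lay below control (43.8 to 48.4) without overlap, and RalAB cKO (53.6 to 61.5) was again the highest. The rise over control was 0.41 ± 0.11 on the log2 scale (SE, adjusted p = 0.0123) and the rise over RalA cKO was 0.41 ± 0.11 (adjusted p = 0.0177), whereas RalA cKO differed from control by 0.01 ± 0.11 (adjusted p = 0.977). RalAB cKO 4 was the highest library, and without it the rise over control was 0.33 (adjusted p = 0.0558) and that over RalA cKO was 0.33 (adjusted p = 0.0803), so both calls ended. The call against RalA cKO also ended without RalA cKO 1 (adjusted p = 0.0515).

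Mdm2, the ligase that both restrains p53 and is one of its classic targets, was 32.2, 46.2, 42.1 and 44.1 CPM in control libraries, 33.9, 37.8, 54.3 and 43.6 CPM in those of RalA cKO and 54.6, 45.2, 52.8 and 45.5 CPM in those of RalAB cKO. Control 1 was the lowest of the 12, and values of all groups overlapped. The differences from control, 0.04 ± 0.15 in RalA cKO (adjusted p = 0.879; negative under several alternatives) and, for the double mutant, 0.27 ± 0.15 (adjusted p = 0.22), were not called. The 95% interval of the latter, -0.02 to 0.56, does not exclude a rise as large as that of Trp53.

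Cdkn1a was 3.08, 3.57, 7.56 and 3.09 CPM in control libraries, 4.47, 2.30, 7.33 and 9.89 CPM in those of RalA cKO and 9.87, 10.6, 16.6 and 27.0 CPM in those of RalAB cKO. Every RalAB cKO library was above every control library, with a spread of 7.91 CPM (SD) around a mean of 16.03, and RalA cKO 4 reached the lowest RalAB cKO value. The rise over control was 1.87 ± 0.45 (adjusted p = 0.0116), and RalA cKO differed from control by 0.47 ± 0.46 (adjusted p = 0.562). Between the mutants the difference was 1.41 ± 0.44 (adjusted p = 0.0591), which missed the threshold here and passed it with the DESeq2 test (adjusted p = 0.00686) and with 3 of the other alternatives. The call against control ended when the count filter was dropped (adjusted p = 0.0537).

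Cyclin G1, the product of the p53 target Ccng1, acts in feedback on p53 and Mdm2. Ccng1 was 27.1, 40.0, 36.4 and 38.3 CPM in control libraries, 28.7, 32.2, 36.5 and 35.9 CPM in those of RalA cKO and 42.5, 32.4, 33.7 and 31.3 CPM in those of RalAB cKO. All groups overlapped, and control 1 and RalAB cKO 1 were the lowest and the highest of the 12 libraries. RalAB cKO differed from control by -0.02 ± 0.14 (adjusted p = 0.952; 95% interval -0.29 to 0.25), with a sign that changed with the library left out.

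Phlda3 showed another pattern, with the highest values in RalA cKO. It was 277, 182, 167 and 237 CPM in control libraries, 314, 396, 337 and 432 CPM in those of RalA cKO and 211, 276, 259 and 237 CPM in those of RalAB cKO. RalA cKO overlapped with neither group, while control and RalAB cKO overlapped. The rise over control in RalA cKO was 0.78 ± 0.15 (adjusted p = 0.0157), a 1.71-fold difference, and RalAB cKO was lower than RalA cKO by -0.59 ± 0.15 (adjusted p = 0.0182). RalAB cKO differed from control by 0.19 ± 0.15 (adjusted p = 0.436). The rise in RalA cKO was no longer called without RalA cKO 4 (0.70, adjusted p = 0.0662) or without control 2 (0.70, adjusted p = 0.0763), and the difference between the mutants was no longer called without RalA cKO 2, RalA cKO 4 or RalAB cKO 4. Phlda3 therefore separated the mutants in the opposite direction to Trp53, and the 2 were the only members called between them.

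**Figure D3:**
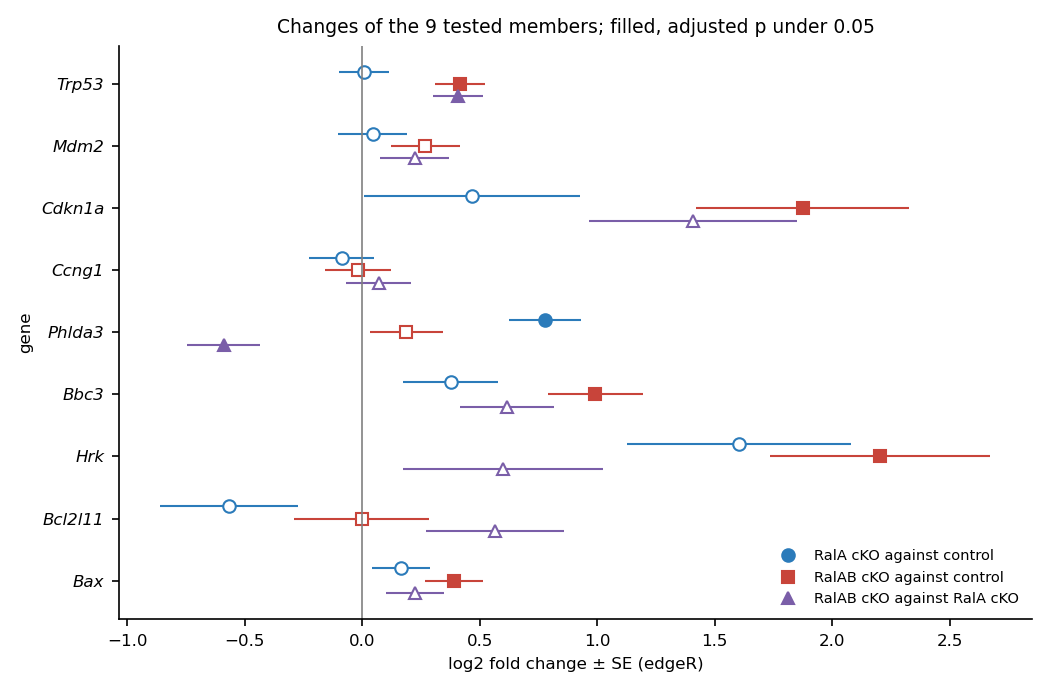
Log2 fold change ± SE (x axis) of the 9 tested members in the 3 comparisons, with filled symbols for an adjusted p under 0.05 and open symbols otherwise. Trp53 has filled symbols at 0.41 in both comparisons of RalAB cKO, and Phlda3 at 0.78 in RalA cKO and -0.59 between the mutants.

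Among the BH3-only genes, Bbc3 was 8.71, 4.997, 8.19 and 6.91 CPM in control libraries, 8.04, 7.96, 8.82 and 12.6 CPM in those of RalA cKO and 13.7, 12.8, 14.0 and 17.0 CPM in those of RalAB cKO. RalAB cKO lay above both other groups without overlap, and within RalA cKO the fourth library stood above the other 3. The rise over control was 0.99 ± 0.20 (adjusted p = 0.00300) and stayed called under all 11 alternatives and with each of the 12 libraries left out, at 0.86 to 1.10. RalA cKO differed from control by 0.38 ± 0.20 (adjusted p = 0.277) and from RalAB cKO by 0.62 ± 0.20 (adjusted p = 0.0576), of which the second was called under 5 of 11 alternatives, DESeq2 included (adjusted p = 0.0296).

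Hrk, a BH3-only gene known mainly from neurons, was found at very low counts. The libraries held 4, 10, 13 and 5 estimated counts in control, 9, 10, 31 and 38 in RalA cKO and 33, 40, 36 and 30 in RalAB cKO, or 0.262 to 0.813, 0.804 to 2.71 and 2.28 to 3.27 CPM. RalA cKO was split, with 2 libraries near the controls and 2 within the RalAB cKO range, and RalAB cKO overlapped with RalA cKO but not with control. The rise over control was 2.20 ± 0.47 in RalAB cKO (adjusted p = 0.00408), called under all 11 alternatives and with each library left out. In RalA cKO it was 1.60 ± 0.48 (adjusted p = 0.0746), and DESeq2 (adjusted p = 0.0281) and the fit without RalA cKO 1 (adjusted p = 0.0419) did call it. Between the mutants the difference was 0.60 ± 0.43 (adjusted p = 0.454; 95% interval -0.23 to 1.44). Hrk passed the count filter only through its mutant libraries, since 1 of its 4 control libraries exceeded 10 counts, so its presence among the tested members is not independent of its rise.

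Bcl2l11 was 9.56, 14.4, 7.06 and 7.91 CPM in control libraries, 3.49, 5.66, 9.25 and 7.83 CPM in those of RalA cKO and 7.57, 8.17, 13.4 and 9.73 CPM in those of RalAB cKO. All groups overlapped, and none of the 3 comparisons was called. The difference from control was -0.57 ± 0.29 in RalA cKO (adjusted p = 0.26), and for RalAB cKO it was within 0.01 of 0, with a 95% interval of -0.56 to 0.56.

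Pmaip1 was nearly absent outside RalAB cKO. Its estimated counts were 1, 2, 5 and 1 in control, 2, 1, 2 and 4 in RalA cKO and 13, 3, 11 and 33 in RalAB cKO, so the gene did not pass the count filter and had no planned test. Summed over a group, 9, 9 and 60 counts gave a ratio of 6.68 between RalAB cKO and control (95% interval 3.29 to 15.3) and of 1.05 between RalA cKO and control (0.369 to 2.98), with exact intervals that cover counting error only and no difference between mice. RalAB cKO 4 alone held 55.0% of the RalAB cKO counts, and RalAB cKO 2 lay within the control range. When the filter was dropped, the fit gave 2.77 ± 0.75 against control (adjusted p = 0.0115). With RalAB cKO 1, 3 or 4 left out Pmaip1 did not pass the filter, so the libraries that held most of its counts could not be checked this way. With any other library left out the value was 2.49 to 3.34, in fits that Pmaip1 entered only through RalAB cKO libraries.

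Bax was 99.5, 72.1, 80.8 and 85.8 CPM in control libraries, 100.5, 99.9, 77.0 and 102 CPM in those of RalA cKO and 103, 106, 105 and 129 CPM in those of RalAB cKO. All RalAB cKO libraries were above all others in CPM, but only narrowly, since control 1 and 3 of the 4 RalA cKO libraries lay close below. In TPM the groups overlapped, with 244 in control 1 and 234 in RalA cKO 1, above 222 in RalAB cKO 3. The rise over control was 0.39 ± 0.12 (adjusted p = 0.0371), RalA cKO differed from control by 0.17 ± 0.12 (adjusted p = 0.429), and the mutants differed by 0.22 ± 0.12 (adjusted p = 0.305). This call was the least stable of the 5: it ended with scaling by library totals (0.30, adjusted p = 0.0602), with transcript length offsets (0.34, adjusted p = 0.122) and in 7 of the 12 fits with a library left out (without control 2, 3 or 4, RalA cKO 2, or RalAB cKO 2, 3 or 4). Bax overlaps the gene model Gm45808 on the same strand, which held 14.98 counts over all libraries.

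**Figure D4:**
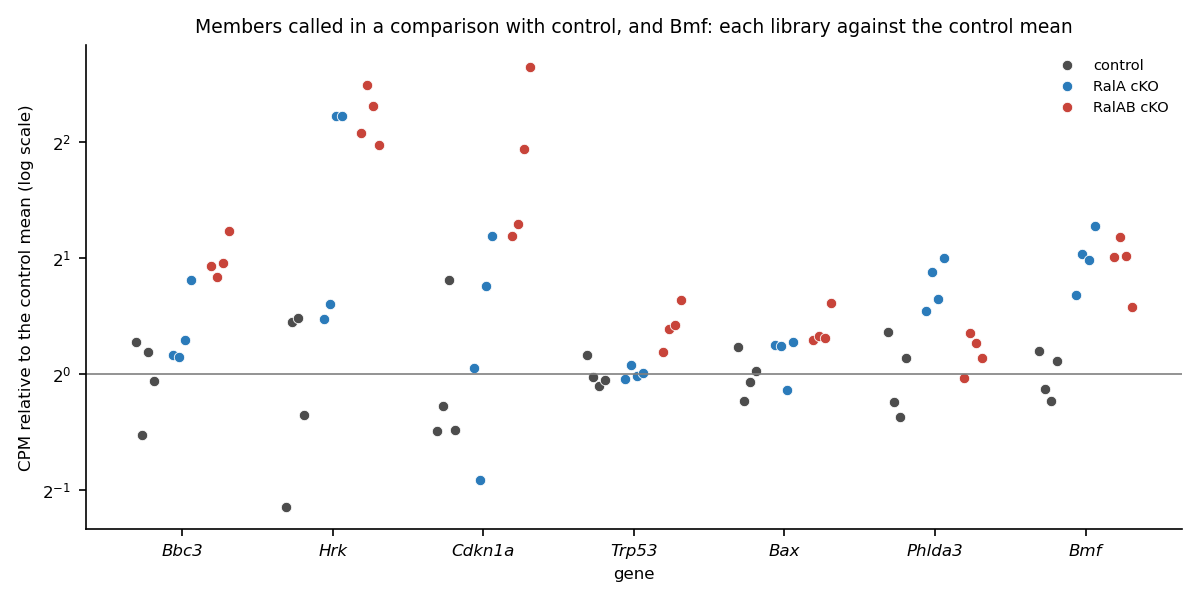
CPM of each library divided by the control mean of that gene (log scale with base 2, y axis) for the 6 members called in a comparison with control and for Bmf, a BH3-only gene of the wider list, coloured by group. Bbc3, Hrk, Cdkn1a, Trp53 and Bax are highest in RalAB cKO, Phlda3 is highest in RalA cKO, and Bmf lies above control in both mutants.

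The CPM values of RalAB cKO and control did not overlap for 5 of the 9 tested members, against 19.2% of all genes. Hrk is among these 5, and its place among the tested members is not independent of its rise. The CPM values did not overlap for 1 member between RalA cKO and control, against 11.4% of all genes. Between the mutants they did not overlap for 4 members (Trp53, Phlda3, Bbc3 and Bax), against 17.3%. Between the mutants 11.5% of all genes were called, 7.03% higher and 4.5% lower in RalAB cKO, beside 1 member higher (Trp53) and 1 lower (Phlda3). The fold changes of RalA cKO and of RalAB cKO against control share the same control libraries. With both control 1 and RalAB cKO 1 left out, a choice made after seeing the data, 1, 5 and 2 members were called in the comparisons of RalA cKO and RalAB cKO with control and of the mutants, as with all libraries. In RalAB cKO, microglia and macrophage markers summed to 1264, 1601, 2245 and 2308 CPM in libraries 1 to 4 and immediate early genes to 521, 597, 776 and 766 CPM. Trp53, Cdkn1a, Bbc3, Pmaip1 and Bax each had their highest value in RalAB cKO 4, the library with the highest microglial sum. Hrk, also called, had its lowest RalAB cKO value in that library (2.28 CPM) and its highest in RalAB cKO 2 (3.27 CPM). The part of microglia and macrophages in the rises was not tested. In RalA cKO against control, the comparison in which Phlda3 was called, edgeR called 2 of the 16 microglial markers lower and 0 higher (14 had an unadjusted p under 0.05 in either direction, and DESeq2 called 6), with a median of -0.74.

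Single transcripts gave no calls. Of 47 annotated transcripts of the members 22 could be tested, and 0 were called by edgeR in each of the 3 comparisons, against 0.117%, 1.68% and 1.52% of 31497 transcripts for the single mutant and the double mutant against control and for the mutants against each other. At an unadjusted p under 0.05 there were 2 (Phlda3-201 and Hrk-201), 5 (Cdkn1a-201, Bbc3-201, Bbc3-203, Hrk-201 and Bax-201) and 3 (Cdkn1a-201, Phlda3-201 and Bbc3-203). The main coding transcript carried 97.3% of the counts of Cdkn1a, 98.5% of Phlda3, 99.1% of Hrk, 75.0% of Bbc3 and 69.5% of Bax. Of the Bbc3 counts, 19.9% went to Bbc3-203, which is annotated as a retained intron, so the gene values of Bbc3 include it. In RalAB cKO against control Bbc3-203 differed by 1.47 ± 0.56 and Bbc3-201 by 0.85 ± 0.26 (SE), neither of them called. Trp53-201 and Trp53-203 differ by 1 base in length and exchanged counts between libraries, with Trp53-201 taking from 5.80% to 91.3%, so only their sum is interpretable.

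Among the other genes of the p53 pathway, Btg2 rose in RalAB cKO and Psrc1 and Ephx1 fell. Of 30 other p53 targets 24 were tested, and in RalAB cKO against control 1 was higher and 2 were lower (12.5% called, beside 18.4% of all genes), with a median of -0.17 over the list beside -0.01 over all genes (7 had an unadjusted p under 0.05, and DESeq2 called 5). Btg2, an antiproliferative target that is also an immediate early gene, was the one that rose: it was 4.13, 12.4, 18.6 and 11.5 CPM in control libraries, 9.65, 6.19, 11.9 and 14.3 CPM in those of RalA cKO and 25.4, 27.2, 50.2 and 45.9 CPM in those of RalAB cKO. All RalAB cKO libraries were above all others, and the change was 1.67 ± 0.39 against control (adjusted p = 0.0110) and 1.82 ± 0.40 against RalA cKO (adjusted p = 0.00924). Psrc1, encoding a spindle protein, fell by 0.90 (adjusted p = 0.0237) and Ephx1, an epoxide hydrolase, fell by 0.62 (adjusted p = 0.0386). The Psrc1 call ended with transcript length offsets (adjusted p = 0.0762) and in 3 of the 12 fits with a library left out. The Ephx1 call ended in 8 of these 12 fits, with length offsets, with mouse number as a block, in the fit on the 2 groups alone and with both control 1 and RalAB cKO 1 left out. In RalA cKO 0 of the 24 were called by edgeR or by DESeq2, beside 2.78% of all genes by edgeR, and 3 had an unadjusted p under 0.05. Over all genes DESeq2 called more than edgeR, 1079 against 374 in RalA cKO and 2964 against 2478 in RalAB cKO, each compared with control. Of 16 regulators and relatives of p53, 13 were tested and 0 were called by edgeR in each comparison, beside 2.78%, 18.4% and 11.5% of all genes for the single mutant, the double mutant and the mutants against each other, while 2, 1 and 1 had an unadjusted p under 0.05 and DESeq2 called 1, Rpl11 in RalAB cKO against control. The most abundant of them were the ribosomal proteins Rpl11 and Rpl5, which can bind Mdm2: they differed between RalAB cKO and control by 0.29 ± 0.11 (adjusted p = 0.0677, with DESeq2 0.0313) and by -0.03 ± 0.09 (adjusted p = 0.867).

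**Figure D5:**
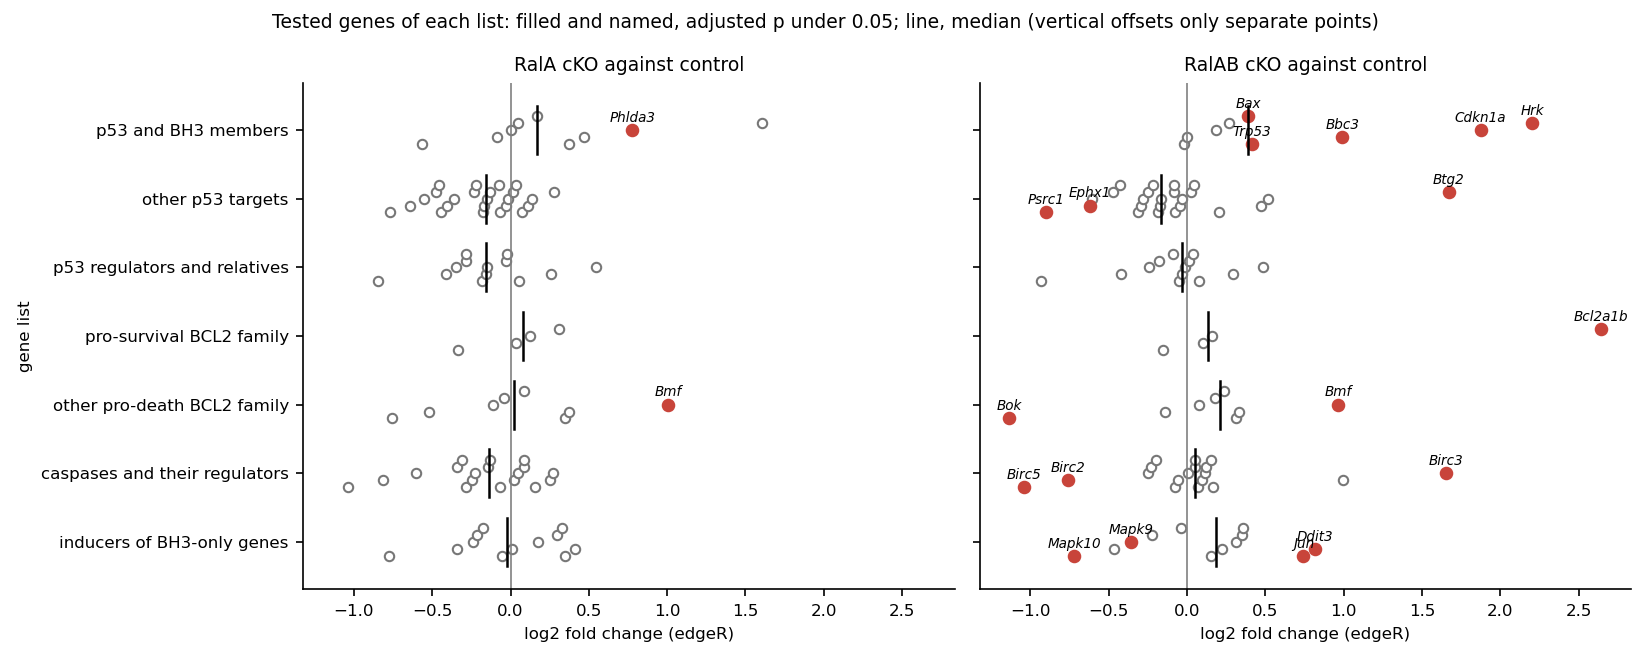
Log2 fold change (x axis) of each tested gene in the member list and 6 pathway lists (y axis) for RalA cKO (left) and RalAB cKO (right) against control, with called genes filled and named and a line at each list's median. The median of other p53 targets lies at -0.16 (left) and -0.17 (right), and that of the members at 0.17 and 0.39.

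Among the other pro-death BCL2 family genes, 8 of 10 were tested. Of the 8, 25% were called in RalAB cKO and 12.5% in RalA cKO against control, beside 18.4% and 2.78% of all genes. Bmf, a BH3-only gene linked to the cytoskeleton, was 80.1, 63.8, 59.4 and 75.5 CPM in control libraries, 112, 143, 137 and 169 CPM in those of RalA cKO and 140.5, 158, 141 and 104 CPM in those of RalAB cKO. Both mutants lay above control without overlap, and they overlapped each other. The change was 1.01 ± 0.15 in RalA cKO (adjusted p = 0.00280) and, in the double mutant, 0.96 ± 0.15 (adjusted p = 0.000391), and the mutants differed by -0.04 ± 0.15 (adjusted p = 0.906). Bmf was the only gene of the 6 pathway lists that edgeR called in RalA cKO against control, and DESeq2 called Mapk9 besides (adjusted p = 0.0238). Bok, an effector related to Bax, was 7.86, 6.19, 6.31 and 5.82 CPM in control and 4.23, 3.43, 1.44 and 2.81 CPM in RalAB cKO, a fall of -1.13 ± 0.27 (adjusted p = 0.00910), and this call ended with transcript length offsets. The list's median was 0.21 in RalAB cKO and 0.02 in RalA cKO.

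Of the 8 pro-survival genes 4 were tested, and Mcl1, Bcl2l1 and Bcl2l2 were not called against control in either mutant. In RalAB cKO against control 25% of the tested genes were called, beside 18.4% of all genes, and between the mutants 50%, beside 11.5%. Between the mutants Bcl2l1, named for this comparison after its values were seen, was lower in RalAB cKO by -0.46. Bcl2a1b rose by 2.65 ± 0.57 in RalAB cKO (adjusted p = 0.00492), from 1.14 ± 0.898 to 7.24 ± 2.74 CPM (SD, n = 4), and is a haematopoietic gene with near-identical copies among which reads may be divided. It moved alongside the microglial markers given above, and their part in it was not tested. Bcl2a1b passed the count filter only with its RalAB cKO libraries, so its place in the shares above is not independent of its rise. All 18 genes of the caspase list were tested. In RalAB cKO against control 16.7% of them were called, beside 18.4% of all genes, and between the mutants 16.7%, beside 11.5%. In RalAB cKO against control Birc3 rose by 1.65 ± 0.55 (adjusted p = 0.0472), Birc2 fell by 0.76 (adjusted p = 0.00461) and Birc5 fell by 1.04 (adjusted p = 0.00920). Birc2 and Birc3 encode ubiquitin ligases that restrain death receptor signalling, and Birc5 (survivin) acts mainly in cell division. The Birc3 call rested on 0.508 and 1.68 CPM and ended in 10 of the 12 fits with a library left out and under 5 of 10 alternatives (library totals, no count filter, the 2 groups alone, mouse number as a block and length offsets). Birc3 too passed the count filter only with RalAB cKO libraries, so its place in the shares of this list is not independent of its rise. Between the mutants Birc3 was higher in RalAB cKO by 2.69 ± 0.62 (adjusted p = 0.00804), Birc2 was lower by -0.78 ± 0.17 (adjusted p = 0.00438) and Casp8, named after its values were seen, was called higher by 1.81.

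Of 13 genes that can induce BH3-only genes 12 were tested. In RalAB cKO against control 33.3% of the tested genes were called, 2 higher and 2 lower, beside 18.4% of all genes. Jun rose in RalAB cKO by 0.74 ± 0.13 (adjusted p = 0.000920), from 99.1, 95.2, 136 and 115 CPM in control to 147, 198, 192 and 209 CPM, without overlap, and it was also higher than in RalA cKO by 0.57 ± 0.13 (adjusted p = 0.00727). Ddit3 rose by 0.82 ± 0.27 (adjusted p = 0.0478), a call that ended in 8 of the 12 fits with a library left out, with library totals (adjusted p = 0.090), with length offsets (0.0505) and with both control 1 and RalAB cKO 1 left out (0.0568), and a second gene model with the same symbol may share its reads. The JNK kinases Mapk10 and Mapk9 fell by 0.72 (adjusted p = 0.0141) and by 0.36 (adjusted p = 0.0227). With transcript length offsets the value of Mapk10 was 0.02 and the call ended, as it did without control 2, and the Mapk9 call ended in 5 of the 12 fits with a library left out and when the count filter was dropped. The FOXO genes and Atf4 were not called in that comparison, and Trib3 was not tested. Between the mutants 2 of the 12 were called higher, Jun and E2f1, the latter named after its values were seen. In that comparison 7.03% of all genes were called higher.

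The genes most like 3 of the members over the 12 libraries, among 9473 protein-coding genes averaging 5 CPM or more, were found by Pearson's r of log2 CPM and are given as a description, since the libraries share groups. For Bbc3 they were Lrp4 (r = 0.967), Ssh3 (0.942) and Cerk (0.942). For Hrk they were Fam13c (0.970), Kit (0.949) and Atp11a (0.945), of which Fam13c had mean levels of 64.1, 106 and 146 CPM in control, RalA cKO and RalAB cKO. For Cdkn1a they were Olfm1 (0.970), Gadd45b (0.952), a stress-induced gene, and Cmtm3 (0.948). Gadd45b was at 2.91, 5.62 and 26.8 CPM in the 3 groups. Among the members themselves, Cdkn1a was most like Pmaip1 (r = 0.889) and Bbc3 (0.852), Bax was like Bbc3 (0.824), and Mdm2 was like Ccng1 (0.747). The values of Phlda3 with the other members were 0.298 or lower.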

How the data were processed

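Estimated counts, TPM values and effective lengths per transcript, 1 file per library, were deposited by the authors. Per the submitters' processing notes, Trimmomatic 0.36, kallisto 0.44 and GRCm38.p6 were used. Per the labels, libraries were stranded mRNA libraries from Trizol RNA.

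Of 121843 transcripts, 121104 matched GENCODE vM21, and the 739 others held 0.2185% to 0.2772% of counts. Counts and TPM were summed per gene and counts were rounded. Genes with enough counts for edgeR (minimum count 10, total 15) numbered 13456. All 12 libraries were fitted with a mean per group, TMM scaling and robust quasi-likelihood F tests in edgeR 4.0.16 (R 4.3.3), with Benjamini-Hochberg adjustment at 0.05. A standard error is the log2 fold change over the square root of F. The scripts were tested on simulated data. Library pairs within a group differed beyond sampling noise (chi-square per degree of freedom 9.12 to 40.5; 27.6 to 40.5 with control 1 and 19.9 to 32.2 with RalAB cKO 1), so all counted as separate. Same-numbered mice did not deviate together (correlations -0.198 to 0.175), so numbers are names only.

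The members and lists were chosen with earlier results of these data known. Named were all members, of each of 6 pathway lists the called genes with the smallest p in RalAB cKO against control (at most 4, or without a call the 2 most abundant), and for the 3 members with the smallest p the 3 genes most like them. The 11 alternatives were median-of-ratios size factors, library totals, no count filter, at least 1 CPM in 4 libraries, the DESeq2 1.42.0 test, limma-voom quality weights (limma 3.58.1), transcript length offsets, a fit on only the 2 groups in question, mouse number as a block and nuclear protein-coding genes only, and, added after seeing the data, control 1 and RalAB cKO 1 both left out; each library was also left out in turn. Promoter sequences are from RefSeq; Pmaip1 had no window in the table used. One oligodendrocyte marker is not reported here and is left out of the marker sum.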

Additional observations from a re-analysis of the deposited data

Results flagged for a closer look

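In 3 of 30 groups of 4 libraries (10 members in 3 groups), 1 library stood apart from the other 3 by more than Dixon's critical value at the 95% level for the gap over the range. Chance flags about 1 in 20 groups. Cdkn1a was 7.56 CPM in control 3, where the next control library had 3.57. That control library also had the highest microglial and immediate early sums of its group, at 614 and 562 CPM, and their part in the value was not tested. Bax was 77.0 CPM in RalA cKO 3, where the other 3 libraries lay between 99.9 and 102 CPM. Bax was 129 CPM in RalAB cKO 4, where the next library had 106 CPM, and the call of Bax in RalAB cKO against control ended without that library.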

How the results depend on the processing

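The calls of Bbc3 and Hrk in RalAB cKO against control held under every alternative run and with each library left out, and the calls of Cdkn1a, Trp53 and Bax were lost where given beside their values. The number of members called in RalAB cKO against control was 3 to 6 with a library left out, the lowest without RalAB cKO 4. Counts include Pmaip1 in the 9 fits where it passed the filter, none of which left out RalAB cKO 1, 3 or 4. Pmaip1 passed there only through RalAB cKO libraries, so its calls in those fits are not independent of its rise. In RalA cKO against control it was 2 with DESeq2 and 0 to 2 with a library left out (0 without control 2 or RalA cKO 4). Between the mutants it was 4 with DESeq2, with limma-voom quality weights and with length offsets, and 0 to 4 with a library left out (0 without RalAB cKO 4). Over all genes, calls in RalA cKO against control numbered 374, and 1079 with DESeq2, 1789 with quality weights, 1693 with control 1 and RalAB cKO 1 both left out, and 85 to 947 with a library left out (without RalA cKO 4 and without control 1). In RalAB cKO against control they numbered 2478, and 4071 with quality weights, 3962 with both libraries left out and 1605 to 3209 with 1 left out (1605 without RalAB cKO 4). Between the mutants they numbered 1551, and 2541 with quality weights. With mouse number as a replicate block, 232, 2146 and 1343 genes and 1, 5 and 3 members were called for the single mutant and the double mutant against control and for the mutants against each other, the third member being Cdkn1a, and the calls of Ephx1 and Birc3 in RalAB cKO against control ended. With library totals the median of all genes moved to -0.14 in RalA cKO and -0.10 in RalAB cKO against control, and the share of calls that were higher was 41.3% and 41.4% instead of 61.5% and 51.0%.

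The signs given next changed in differences that were called under no setting, apart from Mapk10, which fell in RalAB cKO and was 0.016 with length offsets. In RalA cKO against control, Trp53 was -0.11 with library totals and -0.038 to 0.066 with a library left out. There Mdm2 was -0.072 with library totals, -0.088 with quality weights, -0.13 with length offsets, -0.042 with both libraries left out and -0.092 to 0.14 with 1 left out. There too, with 1 library left out, Pmaip1 was -0.13 to 0.78 where it passed the filter, Btg2 -0.43 to 0.18 and Bcl2a1b -0.95 to 0.23. In RalAB cKO against control, Bcl2l11 was 0.0118 with median-of-ratios factors, 0.0115 with DESeq2, 0.090 with quality weights, 0.0022 with nuclear protein-coding genes, 0.10 with both libraries left out and -0.20 to 0.25 with 1 left out. With 1 library left out there, Ccng1 was -0.13 to 0.050 and Rpl5 was -0.063 to 0.0064. Between the mutants Ccng1 was -0.041 with both libraries left out and -0.045 to 0.12 with 1 left out. The cause of these changes was not tested. Depth limits Hrk and Pmaip1, which had at most 40 and 33 counts in a library.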
